A study of Mus musculus with 7 samples.

Results

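The epididymis is the coiled duct behind the testis in which sperm mature, and its epithelium secretes a different set of proteins in each segment. Genes of the initial segment, the caput and the more distal segments are switched on largely around puberty, under androgens and factors that reach the duct from the testis. The 10 genes described here, Lcn5, Lcn8, Lcn9, Gpx5, Adam7, Adam28, Cst8, Cst11, Crisp1 and Cuzd1, were measured in RNA labelled as dermal sheath cells, the mesenchymal layer around the hair follicle. They were chosen by symbol, with earlier results of these arrays known, because their levels differed between arrays. Each was read by 1 probe, so that they make up 10 of 55681 probes and 10 of 21154 named genes on the array. Their levels and differences are therefore given as a description, without a test.

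Of the 7 arrays, 4 held RNA of 6 mice in the group of β-catenin activation, cΔex3 by its label, and 3 held RNA of 4 mice labelled control. All mice were at postnatal day 15, and the cells were sorted from back skin by flow cytometry as carrying the reporter YFP and lacking CD34, integrin α8 and alkaline phosphatase. The labels give neither the Cre driver nor the allele in full, nor the sex of the mice. The cΔex3 arrays 1 and 4 and control arrays 1 and 2 held 1 mouse each, whereas cΔex3 arrays 2 and 3 and control array 3 were pools of 2 mice.

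The headers place all 7 arrays in 1 scan of 1 slide. The processed signal is a spot's fluorescence after background subtraction, in the scanner's arbitrary units. Its 75th percentile lay between 1349 and 2158 on the cΔex3 arrays and between 752 and 908 on the control arrays, and 69.0% to 82.7% of spots against 69.3% to 71.5% were well above background, the scanner software's flag for a detected spot. The number of arrays limits the precision of every comparison, and in such bulk RNA fewer cells of a type cannot be told apart from less RNA per cell. The labelled cells were checked against a list of 10 dermal fibroblast and dermal sheath genes, of which 8 to 10 were above background on the cΔex3 arrays and 8 on each control array. Their levels differed between the groups. The list's median, as log2 relative to each array's 75th percentile, was 3.36 to 4.42 on the cΔex3 arrays and -0.17 to 0.64 on the control arrays. Transcripts of other tissues were also present. The median of 10 hepatocyte genes, as log2 relative to each array's 75th percentile, was -2.17 to 0.92 on the cΔex3 arrays and 8.59 to 9.16 on the control arrays. The median of 10 adipocyte genes on that scale was 6.40 to 7.72 on the cΔex3 arrays and -0.97 to 0.45 on the control arrays. The part of other tissues in the epididymal signals was not tested.

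The caput genes Lcn5, Gpx5 and Adam7 gave their highest signals on cΔex3 arrays 2, 3 and 4 and lay at or near background on cΔex3 array 1 and on the controls, except that Adam7 was clearly present on cΔex3 array 1. Lcn5 encodes a secreted lipocalin that binds retinoic acid and is made in the caput under androgen control. Its processed signal was 3.19, 16827, 110990 and 522837 on cΔex3 arrays 1 to 4, against 2.86, 6.52 and 10.4 on control arrays 1 to 3. The first of these cΔex3 signals and all 3 control signals were not well above background. Against the control group, the scaled signal of Lcn5 was at least 644-fold higher on cΔex3 array 2, at least 3451-fold on array 3 and at least 12514-fold on array 4. These bounds use relative signals, divided by each array's 75th percentile, and put the array's lowest detected signal in place of an undetected one.

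Gpx5 encodes a secreted glutathione peroxidase of the caput that lacks selenocysteine and protects sperm lipids from peroxides. Its processed signal was 12.4, 28554, 196724 and 195254 on cΔex3 arrays 1 to 4, against 5.47, 7.02 and 9.80 on the controls. As for Lcn5, cΔex3 array 1 and the 3 controls were not well above background, so the cΔex3 group held 3 detected arrays and 1 undetected one. Relative to the control group, Gpx5 was at least 1093-fold higher on cΔex3 array 2, at least 6117-fold on array 3 and at least 4673-fold on array 4.

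Adam7 encodes a membrane protein of the ADAM family, without a working protease site, that caput epithelium passes to sperm. Its processed signal was 1276, 7515, 55487 and 384274 on cΔex3 arrays 1 to 4, against 37.1, 15.9 and 39.7 on the controls. All 7 signals were well above background and the groups did not overlap. Scaled signals were 19.3-fold, 156-fold, 937-fold and 4996-fold above the control group on cΔex3 arrays 1 to 4.

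**Figure D1:**
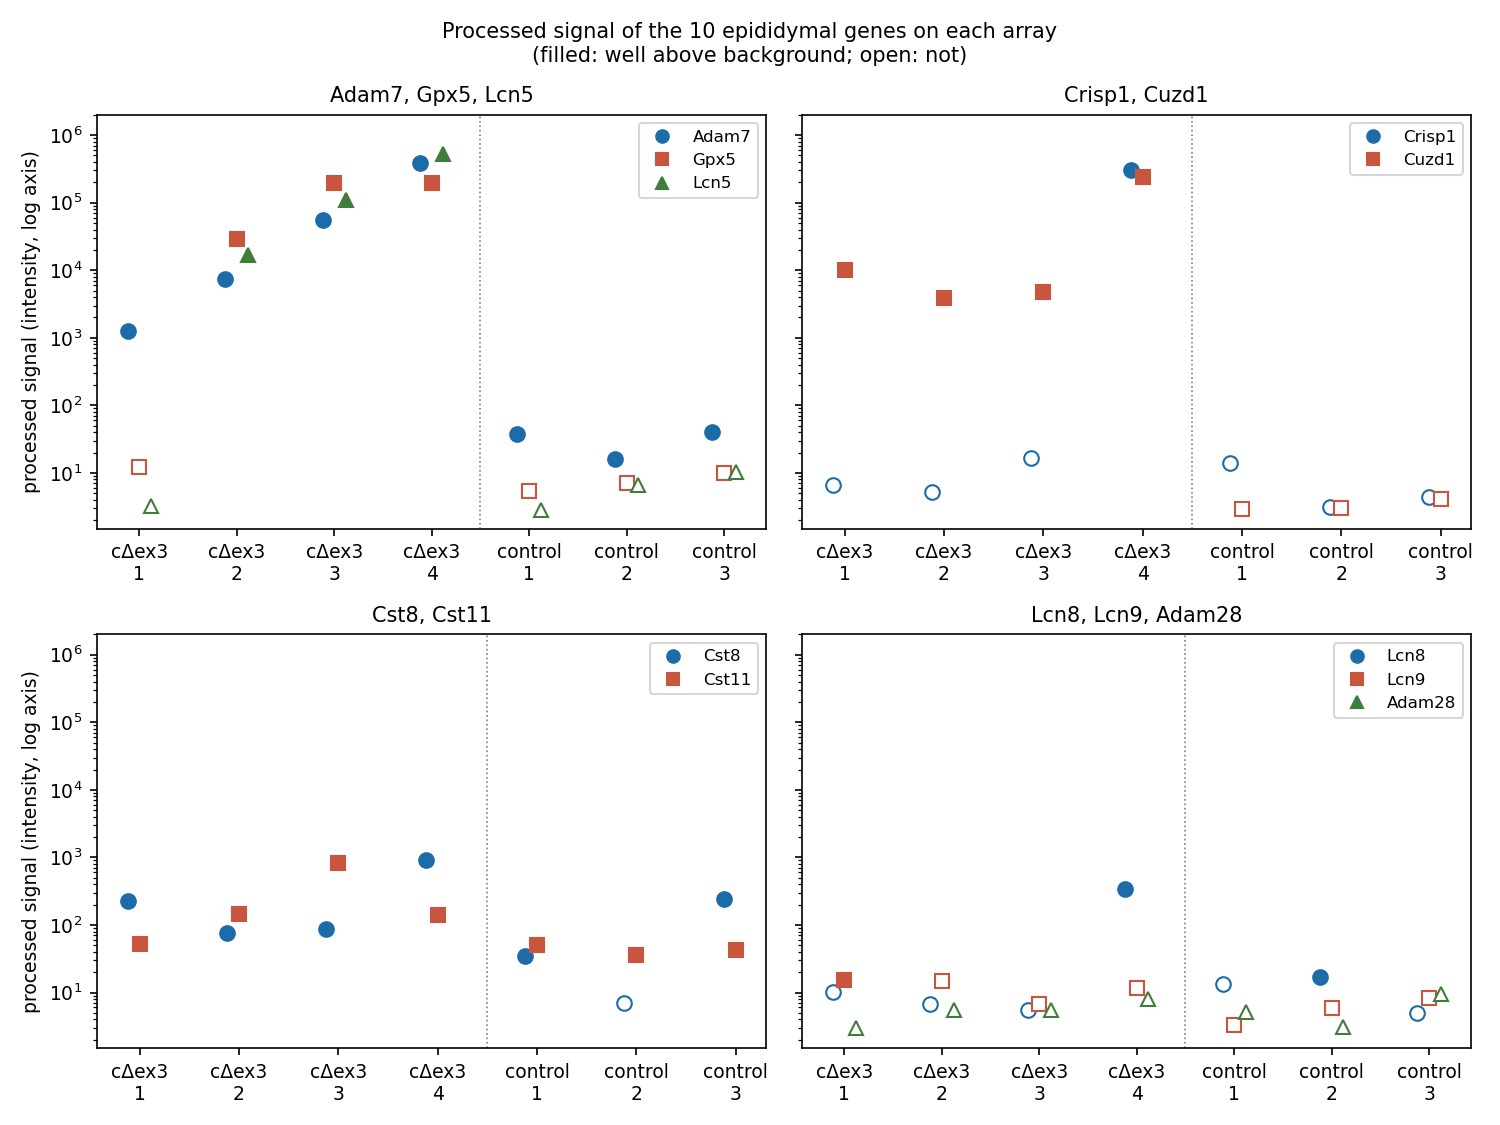
Processed signal (arbitrary units, log axis) of each of the 10 genes on the 4 cΔex3 arrays, left, and the 3 control arrays, right; filled points were well above background and open points were not. Lcn5 and Gpx5 are filled on cΔex3 arrays 2 to 4 only, Crisp1 on cΔex3 array 4 only, and Adam28 on no array.

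Crisp1 is a cysteine-rich secretory protein, made from the distal caput onwards, that coats sperm. Its processed signal was 6.64, 5.17, 16.6 and 303461 on cΔex3 arrays 1 to 4, against 14.1, 3.10 and 4.34 on the controls. Only the signal on cΔex3 array 4, from 1 mouse, was well above background. It was at least 7184-fold above the control group and at least 9388-fold above cΔex3 array 3, on which Lcn5 and Gpx5 were both bright.

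The promoters of these secretory genes are printed because androgen response is what they are best known to share. The windows run from 250 bases before to 50 bases after the start of the gene, 5′ to 3′ in the gene's direction, from RefSeq on GRCm38.p6. Capitals mark AGAACA or its reverse complement TGTTCT, the half-site of steroid hormone response elements. The windows are chr2:25657702-25658001, plus strand, for Lcn5; chr13:21292637-21292936, minus strand, for Gpx5; and chr17:40319158-40319457, minus strand, for Crisp1.
Lcn5: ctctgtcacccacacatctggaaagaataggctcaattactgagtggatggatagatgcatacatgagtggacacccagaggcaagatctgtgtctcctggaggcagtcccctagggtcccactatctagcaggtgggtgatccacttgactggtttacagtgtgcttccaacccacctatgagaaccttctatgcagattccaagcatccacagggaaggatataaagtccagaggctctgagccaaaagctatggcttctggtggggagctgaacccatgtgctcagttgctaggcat
Gpx5: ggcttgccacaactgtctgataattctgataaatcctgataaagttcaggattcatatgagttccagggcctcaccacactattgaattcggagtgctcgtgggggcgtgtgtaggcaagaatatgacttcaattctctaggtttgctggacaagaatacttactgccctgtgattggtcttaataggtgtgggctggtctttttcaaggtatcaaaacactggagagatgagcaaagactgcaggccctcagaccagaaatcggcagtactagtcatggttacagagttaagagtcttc
Crisp1: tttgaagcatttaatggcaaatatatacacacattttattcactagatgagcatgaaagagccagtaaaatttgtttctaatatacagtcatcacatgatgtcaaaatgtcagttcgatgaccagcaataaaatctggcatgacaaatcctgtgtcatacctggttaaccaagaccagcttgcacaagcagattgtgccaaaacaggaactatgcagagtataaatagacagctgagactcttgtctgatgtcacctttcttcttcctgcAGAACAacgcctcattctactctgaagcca

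Of the 10 genes, 7 had a promoter in the table. The half-site occurred in 2 of these windows, Lcn9 and Crisp1, against 19% of all 32851 windows. The whole steroid response palindrome, a half-site followed after 3 bases by its reverse complement, occurred in 0 of 7, against 0.00913% of all windows. The cyclic AMP response element TGACGTCA occurred in 0 of 7, against 1.79%, and the ETS factor core AGGAAG, searched on both strands, in 1 of 7, Crisp1, against 35.4%. A match here is a run of letters in this window and says nothing about binding. Lcn5 and Gpx5, which followed each other over the arrays in being detected, hold none of these 4 motifs in their windows.

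Cuzd1 encodes a CUB and zona pellucida-like domain protein, also known from the zymogen granules of the exocrine pancreas. Its processed signal was 10039, 3946, 4730 and 239031 on cΔex3 arrays 1 to 4, against 2.87, 3.03 and 4.05 on the controls. It was detected on all 4 cΔex3 arrays and on 0 of 3 control arrays, and at least 434-fold higher in the cΔex3 group. Unlike Lcn5 and Gpx5, it was brighter on cΔex3 array 1 than on arrays 2 and 3. Relative to the control group its scaled signal was at least 279-fold, 151-fold, 147-fold and 5721-fold higher on cΔex3 arrays 1 to 4. Of 12 exocrine pancreas genes, 8 to 10 were detected on each cΔex3 array and 8 to 12 on each control array. The shares of all spots detected were 69.0% to 82.7% and 69.3% to 71.5%. The summed relative signal of that list was 1.24 to 11.8 on the cΔex3 arrays and 2.20 to 3.00 on the controls. From highest to lowest, the cΔex3 arrays ran 2, 3, 1 and 4 for this sum. For scaled Cuzd1 they ran 4, 1, 2 and 3. The sum was below every control on cΔex3 arrays 1 and 4 and above every control on arrays 2 and 3. The part of the list in the Cuzd1 signal was not tested.

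The 2 cystatins, relatives of cysteine protease inhibitors made in the proximal duct, were dimmer and did not separate the groups. Cst8, a cystatin-related protein of the initial segment, had processed signals of 227, 75.6, 86.9 and 925 on cΔex3 arrays 1 to 4, against 35.1, 7.05 and 246 on the controls. Control array 3 exceeded cΔex3 arrays 1, 2 and 3, and control array 2 was not well above background. Cst11 had processed signals of 51.4, 147, 813 and 142 on cΔex3 arrays 1 to 4, against 51.2, 36.5 and 42.3 on the controls, and all 7 were well above background. Its brightest array was cΔex3 array 3, where its scaled signal was 9.15-fold above the control group, against 1.23-fold on array 4. Cst11 was thus the only gene of the 10 detected on every cΔex3 array whose signal on array 4 was below that on array 3.

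Lcn8, Lcn9 and Adam28, all known from the proximal duct, were at or near background on most arrays. Lcn8, a lipocalin of the initial segment, had processed signals of 10.3, 6.76, 5.56 and 336 on cΔex3 arrays 1 to 4, against 13.3, 17.2 and 5.04 on the controls. It was well above background on cΔex3 array 4 and on control array 2 only, and was at least 7.59-fold above the control group on cΔex3 array 4. Lcn9, another lipocalin of the initial segment, had 15.5, 14.6, 6.78 and 11.6 against 3.31, 5.89 and 8.29, of which only cΔex3 array 1 was well above background. Adam28, an ADAM protease also known in lymphocytes, had 2.98, 5.42, 5.60 and 7.95 on cΔex3 arrays 1 to 4, against 5.09, 3.10 and 9.56 on the controls, all below that limit. No fold is given for Adam28, whose 7 signals have only a bound.

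The 10 genes did not keep 1 ratio between arrays. Relative to cΔex3 array 2, array 3 held 5.36-fold more Lcn5, 5.60-fold more Gpx5, 6.00-fold more Adam7 and 4.50-fold more Cst11, but 0.933 times the Cst8 and 0.974 times the Cuzd1. Relative to array 3, array 4 held 3.63-fold more Lcn5, 5.33-fold more Adam7, 8.19-fold more Cst8 and 38.9-fold more Cuzd1. It held 0.764 times the Gpx5 and 0.135 times the Cst11. So the caput genes stood in nearly equal proportion between arrays 3 and 2 and in unequal proportion between arrays 4 and 3, with Crisp1 at least 9388-fold apart there. Between arrays 4 and 1, the fold was at least 32925 for Lcn5, at least 12296 for Gpx5, at least 19110 for Crisp1, 259 for Adam7, 20.5 for Cuzd1 and 3.51 for Cst8.

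**Figure D2:**
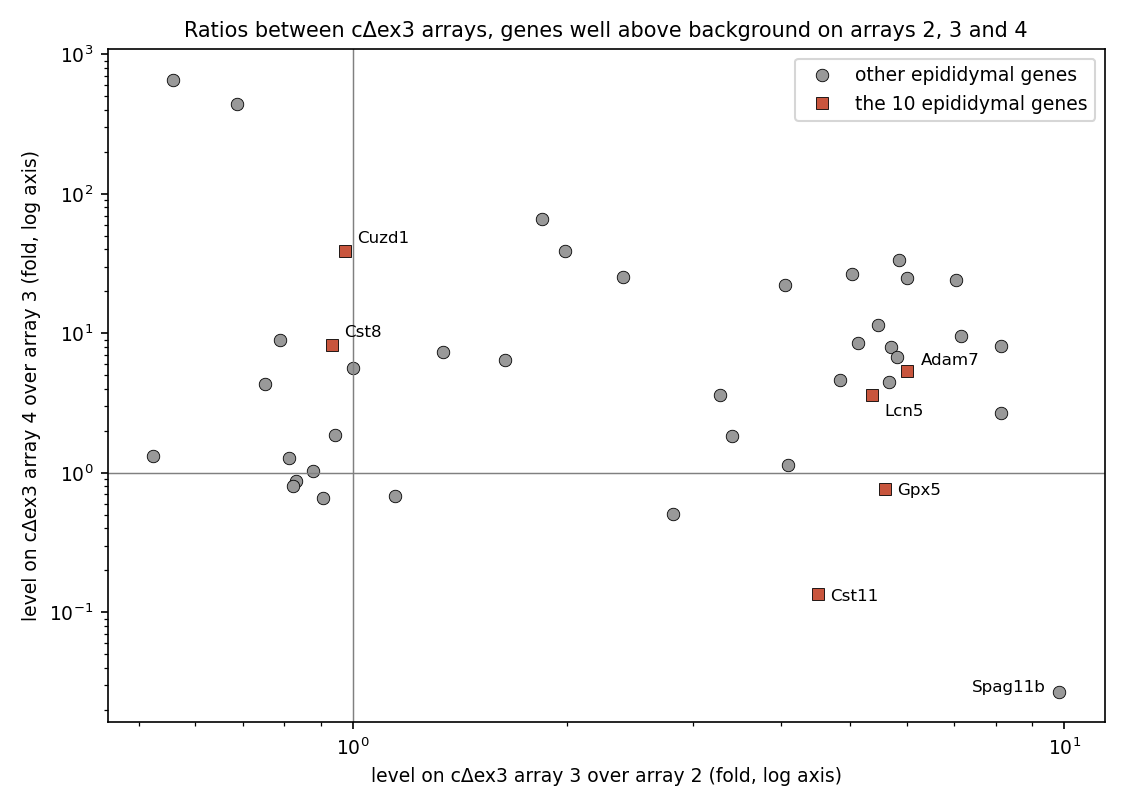
Ratio of scaled signals between cΔex3 arrays (log axes), array 3 over 2 on the horizontal axis and array 4 over 3 on the vertical, for genes well above background on all 3: squares are 6 of the 10 epididymal genes and circles are 37 other epididymal genes. The points are spread more widely along the vertical axis, where the circles run from 0.0269 to 658, than along the horizontal, where they run from 0.523 to 9.84.

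Over the 4 cΔex3 arrays the 10 genes spanned a median of 5.41 on the log2 scale, against 0.88 over all 18039 genes tested, a contrast for which they were chosen. Single spans, with undetected signals as measured, ran from 1.32 for Adam28 to 17.11 for Lcn5. The group mean of Lcn5 was at least 223-fold and that of Gpx5 at least 322-fold higher in cΔex3 than in control, and Adam7, measured on all arrays, was 345-fold higher. The mean difference on the log2 scale, cΔex3 minus control, was 1.18 for Cst8, with control array 2 as measured, and 0.89 for Cst11, smaller in each case than the standard deviation over the cΔex3 arrays. No group difference is given for Crisp1, Lcn8, Lcn9 and Adam28, which were detected on at most 1 array of each group. With undetected signals as measured, the median span of the 10 genes was 1.45 without cΔex3 array 4, and their median difference was 0.81 without that array, against 2.20 with it.

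By the file headers, both slide rows held both groups. In row 1, where cΔex3 array 1 lay beside control arrays 1 and 2, Lcn5 and Gpx5 were detected on none of the 3 arrays. The log2 difference there was 4.42 for Adam7 and at least 8.18 for Cuzd1. In row 2, where cΔex3 arrays 2, 3 and 4 lay beside control array 3, it was 9.52 for Adam7, at least 11.46 for Lcn5, at least 11.52 for Gpx5 and at least 8.87 for Cuzd1. Adam7 and Cuzd1 were thus higher in cΔex3 in both rows. The part of slide row cannot be told apart from that of array 1, the only cΔex3 array in row 1. The names under which the arrays were deposited give another slide number for 7 of 7 arrays, another position for 4 and another row for 2, and by them each row held 1 group, so that row and group cannot be told apart.

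A list of 53 other genes known for epididymal expression, β-defensins left out, was set beside the 10. Of these, 51 had a probe, and 38, 37, 40 and 48 were well above background on cΔex3 arrays 1 to 4, against 33, 30 and 34 on control arrays 1 to 3. The shares of all spots so detected were 81.6%, 69.0%, 70.8% and 82.7%, against 71.5%, 69.6% and 69.3%. Of the 48 detected on some cΔex3 array, 40 were highest on array 4, 3 on array 3, 3 on array 2 and 2 on array 1. Array 4 was the highest cΔex3 array for 29.2% of all genes tested. Of the 48, 5 were detected on array 4 alone, so that their being counted made array 4 the highest. All genes tested were detected on at least 3 of 7 arrays, so these shares are not on equal terms. The order array 4, then 3, then 2, then 1, which Adam7 showed, held for 20 of the 34 detected on all 4 cΔex3 arrays and for 3.51% of the 16509 tested genes so detected. A span over 4 on the log2 scale, or 16-fold, was found for 32 of the 51 and for 3.66% of all genes tested. Only 41 of the 51 were detected on enough arrays to be tested, so these shares too rest on unlike sets.

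Among the genes with the widest span, the protease inhibitor gene Spink11 and the ribonuclease-family genes Rnase9 and Rnase12 had the array order of Lcn5 and Adam7. Their ratios of array 4 over array 3 were 8.06, 33.4 and 24.8. Those of Lcn5, Adam7 and Gpx5 were 3.63, 5.33 and 0.764, so the steps were not alike. Spink11 had processed signals of 2.82, 3113, 31221 and 326983 on cΔex3 arrays 1 to 4, against 2.89, 3.11 and 3.86 on the controls. Rnase9 had 2.95, 465, 3344 and 144972 against 4.29, 3.26 and 4.08. In both, cΔex3 array 1 and every control lay below the detection limit, as for Lcn5. Spink8 had 18.5, 10223, 71435 and 418637 on the cΔex3 arrays, against 24.2, 3.10 and 22.6 on the controls. The whey acidic protein family gene Wfdc9 had 73.4, 1636, 11008 and 163318 against 16.9, 3.17 and 14.0.

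The second pattern was that of Crisp1. The Kunitz-type inhibitor gene Spint4 had processed signals of 2.75, 5.42, 5.13 and 340211 on cΔex3 arrays 1 to 4, against 3.38, 3.06 and 3.90 on the controls. Bsph2, which encodes a sperm-binding protein, had 2.96, 5.45, 5.60 and 73099 against 2.81, 3.03 and 4.11, and the transporter gene Abcb5 had 10.6, 5.52, 5.60 and 17321 against 2.94, 3.20 and 5.48. All 3 were among the 5 of the 51 genes that were detected on cΔex3 array 4 alone. Spint5 had 3.14, 5.63, 7.13 and 283623 on the cΔex3 arrays, against 5.21, 3.28 and 110 on the controls, of which control array 3 was also detected. Crisp3, a relative of Crisp1 chosen after its values were seen, had 63.6, 33.99, 117 and 454244 against 26.7, 10.999 and 20.9.

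The third pattern was that of Cst11. Spag11b, a secreted defensin-like gene also chosen after its values were seen, had 225, 11470, 138934 and 4855 on cΔex3 arrays 1 to 4, against 66.2, 44.5 and 38.1 on the controls. Its signal on array 4 was 0.0269 times that on array 3 after scaling, the smallest of the 37 other epididymal genes detected on cΔex3 arrays 2, 3 and 4. Spag11a, of the same gene family, had 26.2, 1512, 7540 and 218067 against 8.65, 11.97 and 16.7, and so had the array order of Lcn5 and Adam7.

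Over the 23 other epididymal genes with a span over 16-fold and detected on arrays 2, 3 and 4, the median ratio of array 3 over array 2 was 5.12, with quartiles of 2.19 and 5.93. The ratios of Lcn5, Gpx5 and Adam7 lie within these quartiles or, for Adam7 at 6.00, just above them. The median ratio of array 4 over array 3 was 9.51, with quartiles of 6.59 and 26.1, above the 3.63 of Lcn5 and the 5.33 of Adam7.

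**Figure D3:**
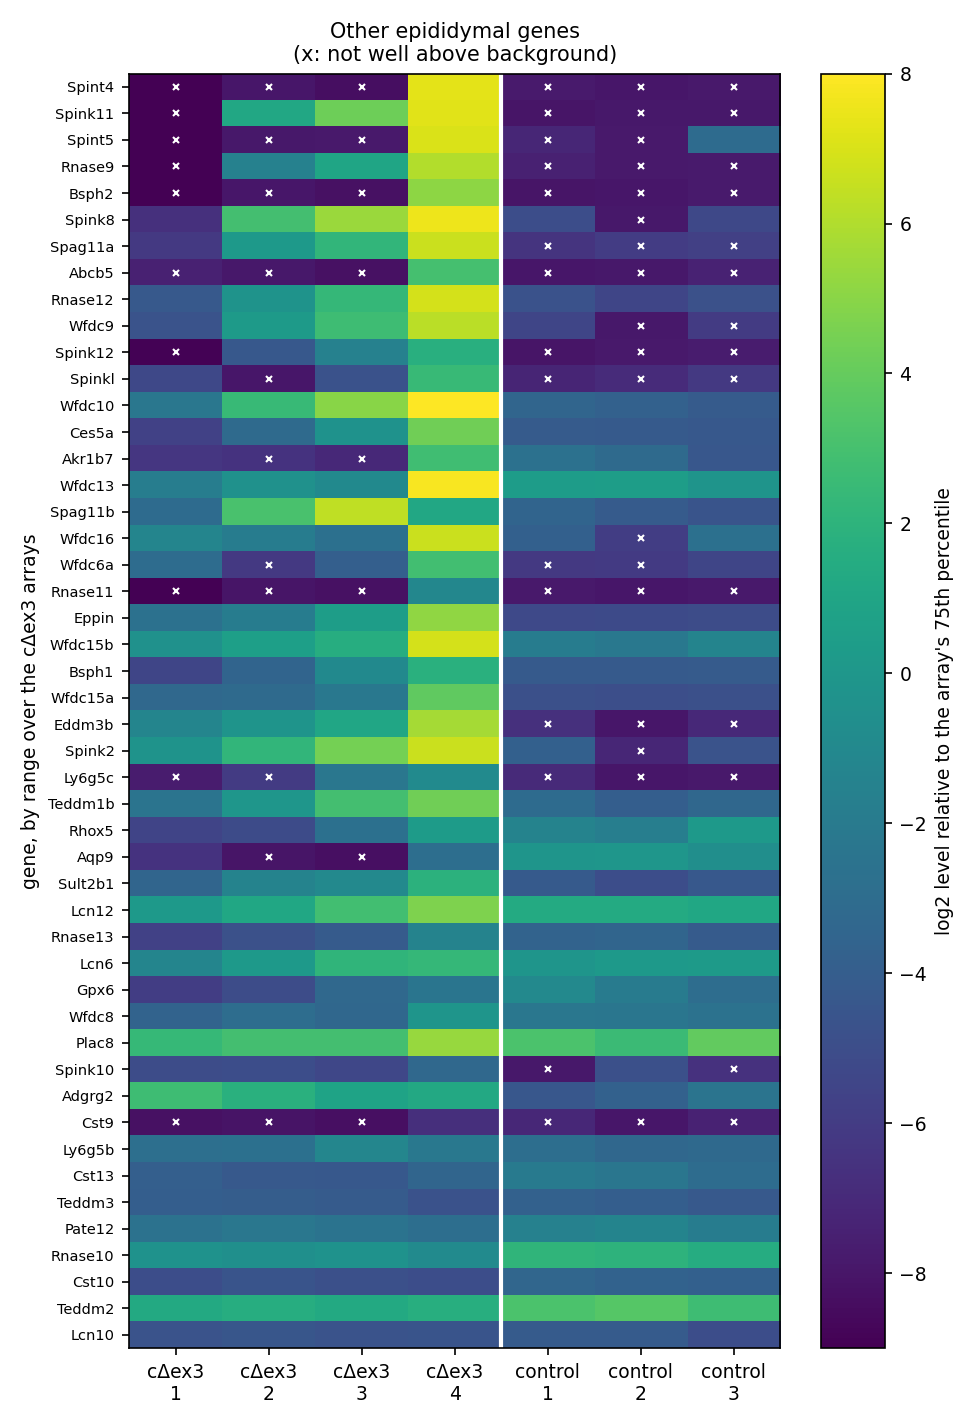
Relative level (log2 of processed signal over the array's 75th percentile) as colour for the other epididymal genes detected on some array, 1 per row in order of span, on the cΔex3 arrays, left, and control arrays, right. Crosses mark signals not well above background. Levels are highest on cΔex3 array 4 for 40 of the 48 genes detected on some cΔex3 array.

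The limma comparison of cΔex3 with control was used only for genes outside the 10. Over all 18039 genes tested, 53.0% passed an adjusted p of 0.05, 23.8% higher and 29.2% lower in cΔex3. Of the 41 other epididymal genes tested, 9 were higher, 6 were lower and 26 did not pass, with a median difference of 2.87. The share called higher, 22.0%, is near that of all genes, and the wide spread within the cΔex3 group left genes such as Spink11 at 8.77 ± 3.61 (SE; limma adjusted p = 0.0779) short of the threshold. For Spink11, cΔex3 array 1 and every control were undetected and entered the fit as measured. Adgrg2, a receptor of the efferent ducts and proximal epididymis chosen after its values were seen, differed by 5.18 ± 0.57 (SE; limma adjusted p = 0.00042). Its processed signal was 12097, 4731, 3049 and 5248 on cΔex3 arrays 1 to 4, against 36.4, 57.7 and 164 on the controls, so that cΔex3 array 1, dark for Lcn5, was the brightest for Adgrg2. Eddm3b at 8.53 ± 1.57 (SE; adjusted p = 0.00371) and Spink2 at 8.47 ± 1.65 (SE; adjusted p = 0.00482), also chosen after their values were seen, were higher on 4 of 4 cΔex3 arrays in the same fit. The fit took undetected signals as measured, and Eddm3b was undetected on every control and Spink2 on control array 2. With these at the detection limit, the group difference was at least 129-fold for Eddm3b and at least 253-fold for Spink2. Among the 6 lower genes were the water channel gene Aqp9, at -6.16 ± 1.27 (SE; adjusted p = 0.00607), and Rnase10, at -2.42 ± 0.22 (SE; adjusted p = 2.0e-04), both chosen after their values were seen. Aqp9 had processed signals of 20.3, 5.05, 5.22 and 299 on cΔex3 arrays 1 to 4, against 680, 725 and 595 on the controls. On cΔex3 arrays 2 and 3 it was not detected. The hepatocyte list was likewise higher on the controls, and the part of other tissues in these lower calls was not tested. The count of 9 fell to 3 with slide row, as the headers give it, as a block, and to 3, 4, 3, 4 and 4 without control array 1, 2 or 3 or cΔex3 array 2 or 3, and it was 15 without cΔex3 array 1. The count of 6 was 11 without cΔex3 array 4. Without scaling between arrays, 19 were higher and 2 lower. Pate12, 1 of the 6 lower genes and chosen after its values were seen, overlapped between the groups before scaling. Its processed signals were 301, 285, 288 and 303 on cΔex3 arrays 1 to 4, against 255, 298 and 253 on the controls.

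The family relatives of the 10 genes were mixed, beside 23.8% higher and 29.2% lower over all genes tested. Of 15 other ADAM genes, 7 were higher and 1 lower, and Adam15, the brightest, had 133592, 124710, 130378 and 83567 against 2310, 2349 and 4131. Of 6 other glutathione peroxidase genes, 3 were higher and 1 lower, among them Gpx3 at 5.87 ± 0.76 (SE; limma adjusted p = 0.00083), and Gpx1 at -2.34 ± 0.37 (SE; adjusted p = 0.00205). Of 7 other lipocalins, 2 were higher and 4 lower. Of 5 tested relatives of Crisp1, 3 were higher and 0 lower. Of 4 tested cystatins, 2 were higher, among them Cst3 at 1.21 ± 0.32 (SE; limma adjusted p = 0.0167). Over the cΔex3 arrays Adam15, Gpx1 and Cst3 varied less than 4-fold and Gpx3 10.8-fold, where Adam7 and Gpx5 varied by 259-fold and by at least 16093-fold. Adam3, chosen after its values were seen, varied 12.6-fold.

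**Figure D4:**
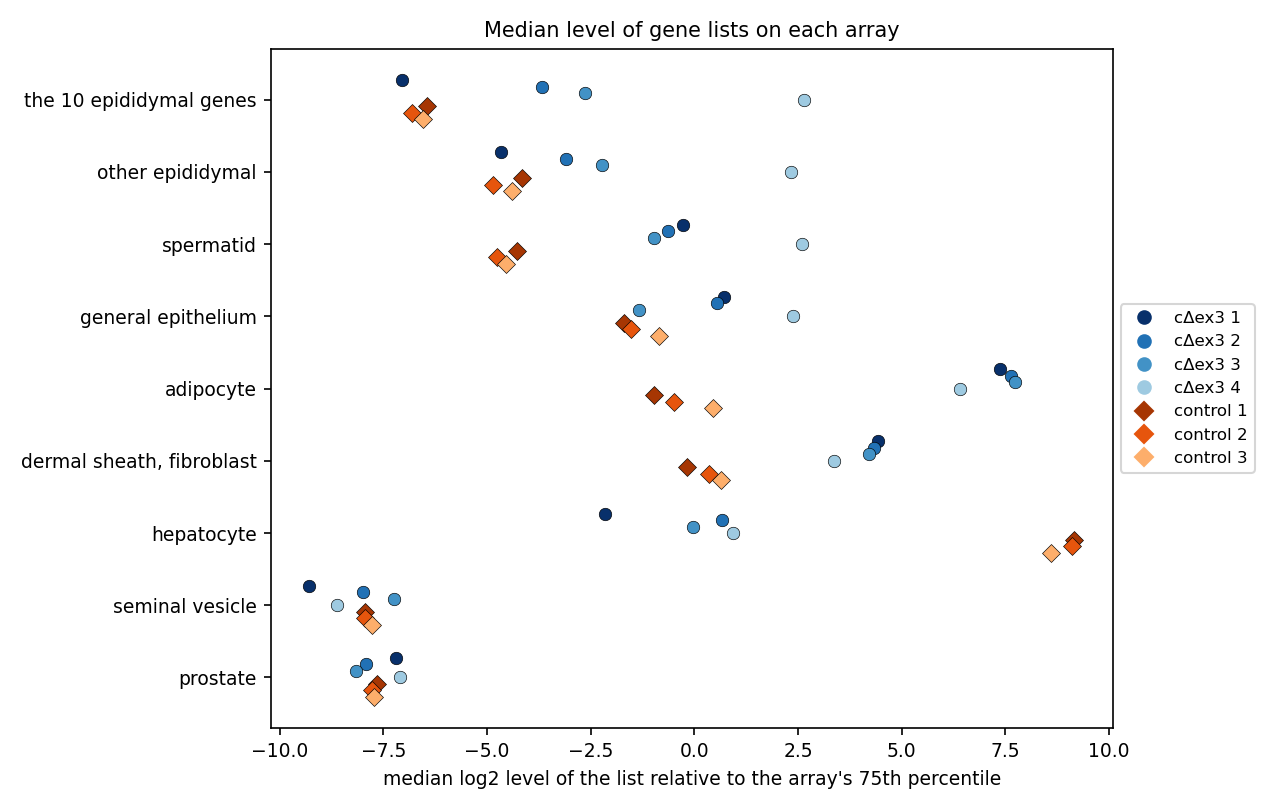
Median relative level (log2 of processed signal over the array's 75th percentile) of 9 gene lists, 1 per row, with circles for the 4 cΔex3 arrays in the upper part of each row and diamonds for the 3 control arrays below them. The 10 epididymal genes and the other epididymal genes are highest on cΔex3 array 4, the adipocyte list is high on all 4 cΔex3 arrays, and the hepatocyte list is high on the 3 control arrays.

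Markers of other cells were read beside the 10 genes on each array. The median of 10 simple epithelium genes, such as the adhesion molecule gene Epcam, was 0.71, 0.54, -1.33 and 2.37 on cΔex3 arrays 1 to 4, against -1.70, -1.53 and -0.85 on the controls. Of these 10, 3 were higher and 3 lower in cΔex3, against 23.8% and 29.2% of all genes tested. Their summed relative signal was 33.3, 50.7, 17.0 and 176 on cΔex3 arrays 1 to 4, against 155, 146 and 187 on the controls. On cΔex3 arrays 1, 2 and 3 the sum thus lay below every control, opposite to Epcam. The sum weighs most the brightest genes of the list, Krt18, Cldn3 and Krt8. The list's median on cΔex3 arrays 1, 2 and 4 lay above every control, so median and sum disagree. The part of other tissues, such as those of the hepatocyte list, in this sum was not tested. Epcam itself had processed signals of 1103, 929, 203 and 5615 on cΔex3 arrays 1 to 4, against 25.7, 29.8 and 83.5 on the controls. Array 4 was the highest for Epcam as for Lcn5, Adam7, Crisp1 and Cuzd1, but array 3, bright for Lcn5 and Gpx5, was the lowest of the cΔex3 arrays. Pax2, a transcription factor of Wolffian duct epithelium, had 70.0, 88.1, 91.5 and 330.5 against 159011, 136665 and 110244. A second probe of Pax2 gave 27.0, 10.0, 8.81 and 63.1 on cΔex3 arrays 1 to 4, detected on arrays 1 and 4, against 10.9, 5.09 and 8.03 on the controls, none detected. The 2 probes thus disagree between the groups. Of 5 tested transcription factor genes of that epithelium, Pax2 read by its brighter probe, 2 were higher and 2 were lower in cΔex3. The shares over all genes tested were 23.8% and 29.2%.

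Germ cell transcripts, which the epididymal lumen can carry in adults, were also read. Prm1, a protamine that packs sperm DNA, had processed signals of 15572, 7271, 6479 and 111133 on cΔex3 arrays 1 to 4, against 35.3, 38.7 and 23.7 on the controls. Of 7 tested germ cell genes, 6 were higher in cΔex3, against 23.8% of all genes tested. The list's median was -0.27, -0.64, -0.97 and 2.60 against -4.27, -4.76 and -4.54. Unlike Lcn5 and Gpx5, Prm1 was bright on cΔex3 array 1. Of 7 seminal vesicle genes, 2, 1, 1 and 3 were detected on cΔex3 arrays 1 to 4, against 0, 0 and 1 on the controls, and of 5 prostate genes 1 or 2 on any array. The shares of all spots detected were 69.0% to 82.7% on the cΔex3 arrays and 69.3% to 71.5% on the controls. Adipoq, the adipocyte hormone gene, had 381508, 365233, 413056 and 199161 against 33.2, 195 and 26.1, and so was lowest among the cΔex3 arrays on array 4. Its part in the epididymal signals, and that of the germ cell and epithelial transcripts, was not tested.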

How the data were processed

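RNA from sorted skin cells was hybridised to 1-colour Agilent mouse arrays, 1 array per sample, with groups taken from the sample titles. Per the file headers, the deposited intensity was extracted with Agilent Feature Extraction 10.7.1.1. The processed signal used here is background-subtracted and not normalised between arrays. Deposited flags gave detection and outlier spots. The authors also deposited log2 values for the whole series, whose making is not given in the sources used here; they served as an alternative. Spots of a probe were averaged, outlier spots left out, and levels were log2 signals relative to the array's 75th percentile. Probes were named through accessions in a RefSeq table on GRCm38.p6, which named 28026 of 55681 probes. Probes detected on at least 3 of 7 arrays were tested, with the brightest probe per gene. The other genes were compared with limma 3.58.1 in R 4.3.3 (lmFit and eBayes, two-sided, no covariate, Benjamini-Hochberg over all genes, threshold 0.05), after checking the steps on simulated data. The labels call the arrays biological replicates. The 10 genes and all lists were chosen with earlier results of these data known. Genes were named as the 10, the 8 most alike, the 10 other epididymal genes with the widest span, the 3 brightest of each other list, and Adipoq, Alb, Epcam, Pax2 and Prm1; those outside this rule are said to be chosen after their values were seen, not every gene of the rule is described, and 1 is not reported here. Pairwise protein identity was not analysed here.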

Additional observations from a re-analysis of the deposited data

Results flagged for a closer look

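Within the 4 cΔex3 arrays, 1 array stood far from the rest for Lcn8 and Crisp1. For Lcn8 the gap between the farthest array and its nearest neighbour was 0.867 of the whole log2 range, and for Crisp1 it was 0.903, both above Dixon's 95% critical value for 4 samples. With undetected signals at the array's detection limit the values were 0.706, below that critical value, and 0.909. In both cases the array was cΔex3 array 4, with a processed signal of 336 for Lcn8 and 303461 for Crisp1, while the other 3 signals were not well above background. Of the 10 genes, the 9 detected on some cΔex3 array were examined. Chance flags about 1 in 20 groups that are not selected, and since these genes were chosen for levels that differ between arrays the values are a description and no test.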

How the results depend on the processing

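The number of other epididymal genes called higher, 9, was 4 with normexp background correction, 19 without scaling between arrays, 5 in the authors' deposited log2 values, 1 with arrays of 1 mouse only and 3 with slide row as a block. It ranged from 3 to 15 when each array was left out. Adgrg2 was among the genes called in all 18 settings, and Eddm3b and Spink2 in all but that with arrays of 1 mouse only. The number called lower, 6, was 2 without scaling between arrays, and ranged from 6 to 11 when each array was left out. Of the genes of the other lists, 62 were called higher and 38 lower, and these ranged from 46 to 72 and from 26 to 45 when each array was left out, and the lower count was 23 without scaling. The median span of the 10 genes over the cΔex3 arrays, 5.41, ranged from 1.45, without cΔex3 array 4, to 5.41 when each array was left out, and was 5.92 without scaling between arrays. Their median difference, 2.20, was 4.89 with arrays of 1 mouse only and ranged from 0.81 to 3.06 when each array was left out. Of 360 values of single genes under the alternatives, 331 moved by less than 1 SD and 29 by more. Many of these could not move. Each of the 10 genes had 1 probe and was given without a filter, and spans over the cΔex3 arrays do not depend on the controls or on slide row. The SD is also a wide measure here, since the Lcn5 difference of 9.22 counted as unmoved at 5.71 with slide row as a block. Alternatives added after seeing the data, with undetected signals at the array's detection limit, gave a median span of 4.84 and a median difference of 1.81.

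Deviations from the group means correlated at 0.00022, 0.0174 and 0.0338 between arrays with the same replicate number. Between arrays of unlike number the correlations ran from -0.0811 to 0.0567. This shows no sign that the numbers pair the samples, though so few arrays cannot exclude it. With replicate number as a block, over replicates 1 to 3, 9 other epididymal genes were higher, 7 of them shared with the 9 above, and 10 were lower. The median span was then 1.45 and the median difference 0.81, over cΔex3 arrays 1 to 3. Pairwise protein identity was not run. Signals below the detection limit give only a bound. Among the 10 genes this touches Adam28 on every array, Lcn8, Lcn9, Crisp1, Lcn5 and Gpx5 on several, Cuzd1 on the 3 controls and Cst8 on control array 2. It also touches other genes that were tested, such as Eddm3b and Spink11.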

Other observations

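The genes whose levels over the 7 arrays were most like the mean standardised level of the 10 genes were, among 1451 genes with a span of at least 3 on the log2 scale over the cΔex3 arrays, mostly β-defensins and epididymal genes. Pearson's r was 0.984 for Defb39, 0.976 for Defb2, 0.973 for Krt14, 0.972 for Defb30, 0.967 for Spag11a, 0.966 for Sult2b1, 0.966 for Defb37 and 0.965 for Rnase12. It was above 0.95 for 19 genes and above 0.9 for 86. The points share 7 arrays in 2 groups, so these values describe likeness only. Defb39, a secreted antimicrobial peptide gene, had processed signals of 23.1, 861, 4172 and 214135 on cΔex3 arrays 1 to 4, against 5.36, 3.15 and 16.7 on the controls. Krt14, a keratin of basal epithelial cells, had 106.9, 298, 437 and 1688 against 65.1, 52.1 and 69.6.

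Several of the 10 genes lie in clusters, by gene order in the RefSeq table. Lcn8 and Lcn5 on chromosome 2 have 0 coding genes between them, yet Lcn5 was detected on cΔex3 arrays 2, 3 and 4 and Lcn8 on array 4 alone of the cΔex3 arrays. Lcn6, in the 8 genes between Lcn5 and Lcn9 and chosen after its values were seen, had 770, 1463, 7361 and 10811 on cΔex3 arrays 1 to 4, against 688, 862 and 1082 on the controls. Adamdec1, the only coding gene between Adam7 and Adam28 on chromosome 14 and likewise chosen after its values were seen, had 29.7, 5.09, 10.9 and 229 against 1209, 1335 and 1211, opposite to Adam7 between the groups.

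The Y-linked transcript Ddx3y, likewise chosen after its values were seen, was detected on 7 of 7 arrays, at 6333, 4079, 7672 and 6547 on cΔex3 arrays 1 to 4, against 3630, 4201 and 4009 on the controls. Eif2s3y, also Y-linked, had 6075, 7206, 12143 and 10365 against 6891, 8999 and 11986. The X-linked Xist lay between 2.76 and 17.8 by 1 probe, detected on control array 2 only. By another probe it lay between 10.5 and 27.4, detected on cΔex3 arrays 1 and 4 only. The sex of each mouse in the pools was not tested.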
